A study of Mus musculus with 6 samples.

Results

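The genes described here are 8 transcripts of the choroid plexus, Ttr, Kl, Folr1, Slc4a5, Ace, Igf2, Igfbp2 and Aqp1, as they appeared on arrays of mouse striatum. They were chosen by name with earlier results of the same arrays known, among them the per-array values and their correlation with Ttr, so both are given as a description and not tested. All 8 genes were measured, by 13 of the 12422 probe sets left after removal of the manufacturer's controls. A probe set is the group of probes whose signals are combined into 1 value for a transcript, and it was used where the platform annotation gave exactly 1 gene symbol. The samples were striatum, the forebrain nucleus that lies along the lateral ventricle, from 3 Hdh4/Q80 mutants and 3 littermates of wild type. By the labels the 6 mice were C57BL/6 females aged 12 months, each on its own array. Hdh4/Q80 mice, which the labels call transgenic, have a lengthened CAG repeat within the murine homologue of the Huntington's disease gene. The labels and design text used here state neither zygosity nor how the striatum was dissected. Values are log2 expression, so a difference of 1 is a doubling, and wild-type mice carry replicate numbers 4 to 6 and Hdh4/Q80 mice 7 to 9.

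The choroid plexus is a fold of vascular tissue inside the brain ventricles, covered by a single epithelium that secretes cerebrospinal fluid. Its epithelium is the main source of transthyretin in the brain, which carries thyroid hormone and retinol, and it is rich in water, ion and vitamin transporters. It is not part of the striatal parenchyma but hangs in the ventricle beside it. In a tissue sample of this kind, fewer cells of a type and less RNA per cell cannot be told apart. Arrays of the whole series were alike at the centre, with medians from 7.10 to 7.13 and lower quartiles from 5.79 to 5.86. Hdh4/Q80 replicate 8 stood apart across all probe sets, with a mean correlation of 0.992 with the other arrays against 0.995 to 0.997 for the remaining mice. Of the striatal anchors, Penk, the enkephalin precursor, lay between 12.92 and 13.14 on the 6 arrays on its brightest probe set. On 94517_r_at it ran from 8.34 (Hdh4/Q80 replicate 8) to 9.03 (wild-type replicate 4). Tac1, the substance P precursor, ran from 9.52 (wild-type replicate 6) to 10.20 (wild-type replicate 4).

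Ttr, the hormone carrier, differed more between individual mice than any other of the 12422 probe sets. It read 8.48, 8.32 and 10.26 in wild-type replicates 4, 5 and 6, and 8.46, 10.59 and 11.24 in Hdh4/Q80 replicates 7, 8 and 9. Wild-type replicate 6 and Hdh4/Q80 replicates 8 and 9 were high and the other 3 mice low, so each genotype held both kinds of value and the groups overlapped. The widest gap between neighbouring values, 1.78 on the log2 scale, separated 3 arrays from 3 arrays. From the lowest to the highest mouse the span was 2.93, or 7.6-fold, the largest in the table. Within wild type alone the span was 1.95 (3.85-fold), rank 2 of 12422, and within Hdh4/Q80 2.78 (6.89-fold), rank 1.

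Kl encodes klotho, a transmembrane coreceptor for fibroblast growth factor 23 that is abundant in kidney and in choroid plexus. Its probe set read 5.03, 5.06 and 6.02 in wild type and 5.05, 6.53 and 7.04 in the mutants, in replicate order. The same 3 mice as for Ttr were high, the other 3 lay close together, and the groups overlapped. The 3 low values were below the lower quartile of every array and the 3 high values above it. The span of 2.01, or 4.03-fold, ranked 5 among all probe sets, and that within wild type (0.99, or 1.99-fold) ranked 11. RMA, the method that made these values, compresses changes at low signal, and the span refers to that scale.

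Folr1, the folate receptor alpha that moves folate from blood into cerebrospinal fluid, had a pair of probe sets. The brighter (93785_at) read 7.49, 7.43 and 7.75 in wild type and 7.45, 7.95 and 8.23 in the mutants, again high in wild-type replicate 6 and Hdh4/Q80 replicates 8 and 9, with a span of 0.80 (1.74-fold). The other (162302_f_at) read 7.05, 7.04 and 7.07 in wild type and 7.09, 7.52 and 7.46 in the mutants. On this probe set wild-type replicate 6 was not high and the groups did not overlap, although the lowest mutant lay only just above the highest wild type. The suffix _f_at marks probes that may bind members of a sequence family.

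**Figure D1:**
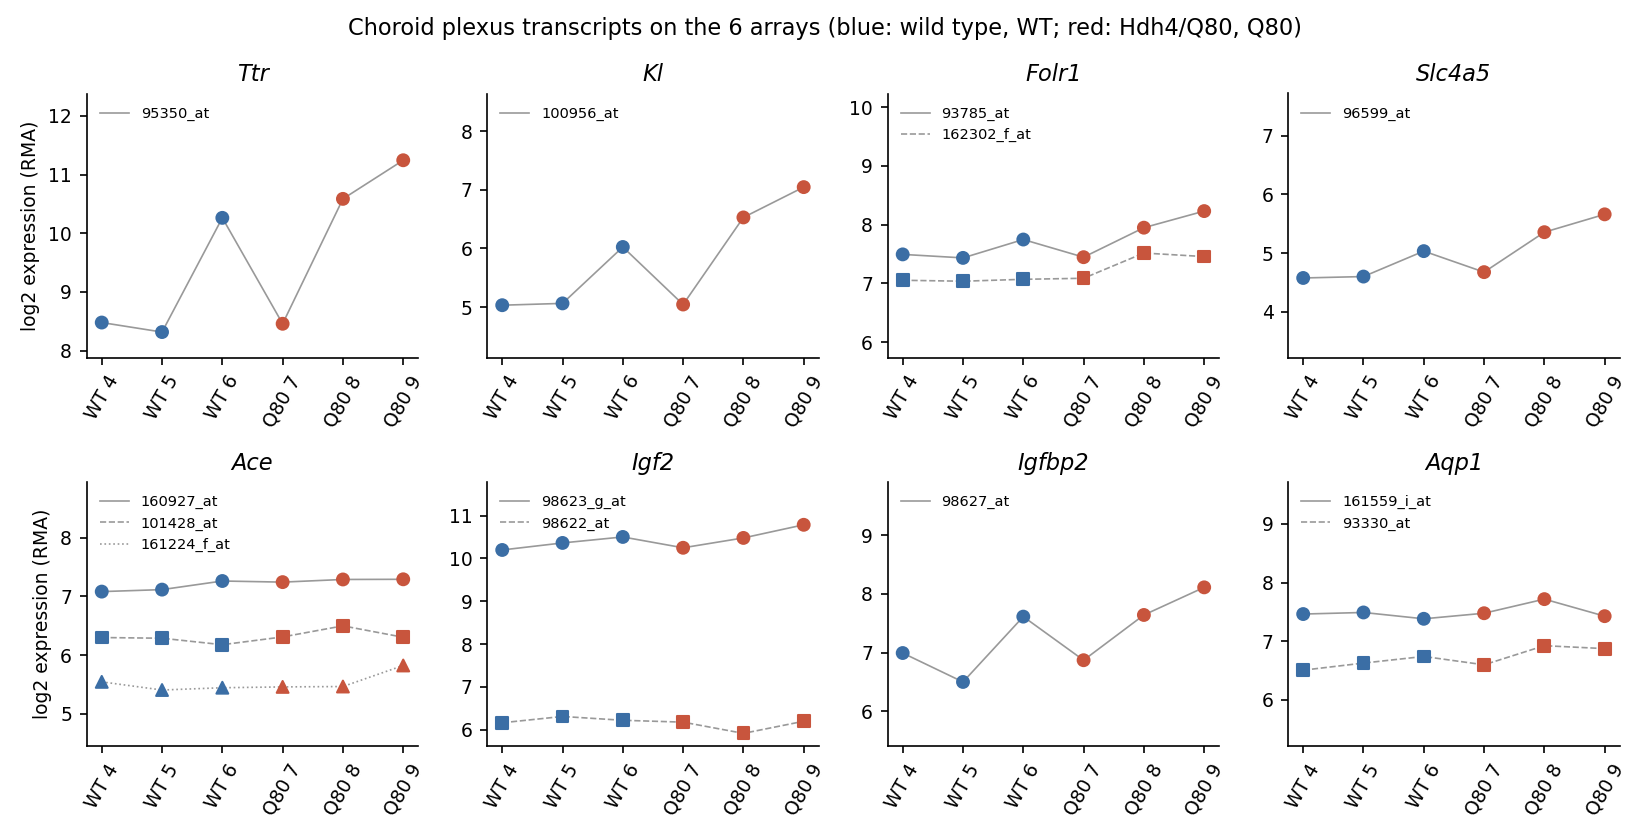
Log2 expression (vertical axis, each panel on its own range) of the 13 probe sets of the 8 genes on each of the 6 arrays (horizontal axis), blue for wild type and red for Hdh4/Q80; grey lines only join the points of 1 probe set. Ttr, Kl, Slc4a5, Igfbp2 and the brighter Folr1 probe set are high in WT 6, Q80 8 and Q80 9, while the remaining probe sets span less than 0.6.

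Slc4a5 and Aqp1 belong to the machinery that secretes cerebrospinal fluid. Slc4a5 encodes a sodium bicarbonate cotransporter of the ventricular face of the epithelium, and read 4.58, 4.60 and 5.03 in wild type and 4.68, 5.36 and 5.66 in the mutants. It was high in the same 3 mice as Ttr and the groups overlapped. All 6 values lay below the lower quartile of the arrays, yet the span of 1.08 (2.12-fold) ranked 38 of 12422. Aqp1, the water channel of the same membrane, had 2 probe sets that disagreed. One (93330_at) read 6.51, 6.63 and 6.74 in wild type and 6.60, 6.92 and 6.87 in the mutants, and its 3 highest values were those of the mice high for Ttr. The brighter one (161559_i_at) read 7.46, 7.49 and 7.38 in wild type and 7.48, 7.72 and 7.43 in the mutants, where wild-type replicate 6 was the lowest mouse and Hdh4/Q80 replicate 9 the next. The suffix _i_at marks a set with fewer specific probes.

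Igf2 and Igfbp2 are a growth factor and a binding protein of the insulin-like growth factor system, both made by choroid plexus and by the meninges. Igfbp2 read 6.99, 6.50 and 7.61 in wild type and 6.87, 7.64 and 8.11 in the mutants, high in the mice that were high for Ttr, with overlapping groups. Its span of 1.61 (3.06-fold) ranked 10, and its span within wild type of 1.11 ranked 8. The brighter probe set of Igf2 (98623_g_at) read 10.20, 10.36 and 10.50 in wild type and 10.25, 10.48 and 10.79 in the mutants, a span of 0.59 (1.5-fold). The other (98622_at) read 6.16, 6.31 and 6.22 in wild type and 6.18, 5.91 and 6.20 in the mutants, lowest in a mouse that was high for Ttr. The Igf2 probe sets thus ordered the mice differently.

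Ace, the angiotensin-converting enzyme, which is found on the choroid plexus epithelium and on vessels, varied least on its brightest probe set. This one of 3 (160927_at) read 7.08, 7.12 and 7.26 in wild type and 7.24, 7.29 and 7.29 in the mutants, a span of 0.21. Hdh4/Q80 replicate 7, low for Ttr, was here within 0.05 of the other mutants. The remaining probe sets read 6.30, 6.29, 6.18, 6.31, 6.50 and 6.31 (101428_at) and 5.55, 5.41, 5.45, 5.46, 5.47 and 5.82 (161224_f_at) in replicates 4 to 9. On the first of these only Hdh4/Q80 replicate 8 was high, and on the second only replicate 9.

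The upstream sequences of the 8 genes were read as a description. They are reference sequences and not those of the individual mice. RefSeq windows on GRCm38.p6 were held for 6 of the 8 genes, not for Ttr and Folr1. They covered 11 annotated starts in all, and the 250 bases before each start were searched on both strands. The windows shown are those of Kl (chr5:150952357-150952606), Slc4a5 (chr6:83237125-83237374) and Igfbp2 (chr1:72824230-72824479, the more upstream of its 2 starts), which after Ttr had the widest spans, and of Ace (chr11:105967698-105967947, likewise the more upstream of 2), which had the narrowest and was the one gene of the 6 with TAATCC. All 4 lie on the plus strand and run from -250 to -1 relative to the start, with matches to any motif searched in capitals.
Kl: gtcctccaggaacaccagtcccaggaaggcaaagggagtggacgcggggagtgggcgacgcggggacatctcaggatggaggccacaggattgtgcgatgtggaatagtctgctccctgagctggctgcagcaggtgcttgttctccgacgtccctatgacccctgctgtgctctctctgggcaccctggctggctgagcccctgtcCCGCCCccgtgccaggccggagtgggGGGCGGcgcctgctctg
Slc4a5: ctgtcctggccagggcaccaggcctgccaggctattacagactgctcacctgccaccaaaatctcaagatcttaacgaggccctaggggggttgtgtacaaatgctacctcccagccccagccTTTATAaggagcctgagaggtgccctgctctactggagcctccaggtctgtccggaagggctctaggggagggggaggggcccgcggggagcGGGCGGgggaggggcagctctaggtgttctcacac
Igfbp2: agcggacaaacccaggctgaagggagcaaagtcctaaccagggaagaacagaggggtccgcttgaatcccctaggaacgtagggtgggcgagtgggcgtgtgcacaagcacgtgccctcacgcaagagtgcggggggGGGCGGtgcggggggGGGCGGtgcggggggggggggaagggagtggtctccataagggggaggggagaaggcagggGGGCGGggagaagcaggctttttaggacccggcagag
Ace: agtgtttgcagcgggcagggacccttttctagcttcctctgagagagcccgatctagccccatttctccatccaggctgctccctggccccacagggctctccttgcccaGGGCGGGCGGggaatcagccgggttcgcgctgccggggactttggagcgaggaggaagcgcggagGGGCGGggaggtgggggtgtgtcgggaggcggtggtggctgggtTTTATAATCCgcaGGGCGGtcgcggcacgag

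The GC box GGGCGG, a site of Sp1-type factors, was in 7 of the 11 windows, against 32.7% of 32851 RefSeq windows of the same length. Each of the 6 genes had at least 1 such window. Igf2, Ace and Igfbp2 had several windows each, and the share of all genes with at least 1 was not computed. The windows shown were rich in G and C, with 66.8% for Kl, 62.8% for Slc4a5, 67.2% for Igfbp2 and 67.2% for Ace, against a median of 52.4% over all windows. The remaining windows with a GC box had 62% (Aqp1) and 66% and 68.8% (Igf2). Those without it had 58% (the other Ace start), 56.4% (the other Igfbp2 start), and 50.8% and 47.6% (Igf2). TAATCC, which OTX2 and related homeodomain proteins bind, was in 1 window, that of Ace, at -27 to -22, overlapping a TATAAA match on the minus strand at -31 to -26 (6.25% of all windows hold the first). TATAAA, the letters of the TATA box, was in 2 windows (12.4% of all), both times on the minus strand. These were that of Ace and that of Slc4a5, the latter at -127 to -122. CCAAT was in 2 windows (33.8%) and the forkhead core TAAACA in 1, at the other Igfbp2 start (12%). The GC box matches of Ace at -140 and -136 overlapped each other. A match of these letters is not a measured binding site.

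The likeness to Ttr is described by Pearson's r and Spearman's rho over the 6 arrays, with no test, since this measure helped to choose the genes. Because Ttr fell into 2 sets of arrays, r here mostly reports whether a transcript followed that step. Of the 12 probe sets other than Ttr, 8 had an r of at least 0.8, at least 1 for each of the 7 genes, where 1.59% of all probe sets did. By rho 4 of the 12 reached 0.8, but the share of all probe sets that did so by rho was not computed. Kl had r = 0.99 (rho 0.77), Slc4a5 0.97 (rho 0.83), Igfbp2 0.97 and the brighter Folr1 probe set 0.97 (rho 1 for both). In these 4 transcripts and Ttr the 3 high mice also stood in 1 order, with wild-type replicate 6 lowest and Hdh4/Q80 replicate 9 highest. Aqp1 on 93330_at had r = 0.91, Igf2 on 98623_g_at 0.90, Folr1 on 162302_f_at 0.81 and Ace on 160927_at 0.80, the last just inside the limit. The 4 probe sets under 0.8 were those of Ace (0.59 on 161224_f_at and 0.19 on 101428_at), Aqp1 (0.13 on 161559_i_at) and Igf2 (-0.41 on 98622_at).

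**Figure D2:**
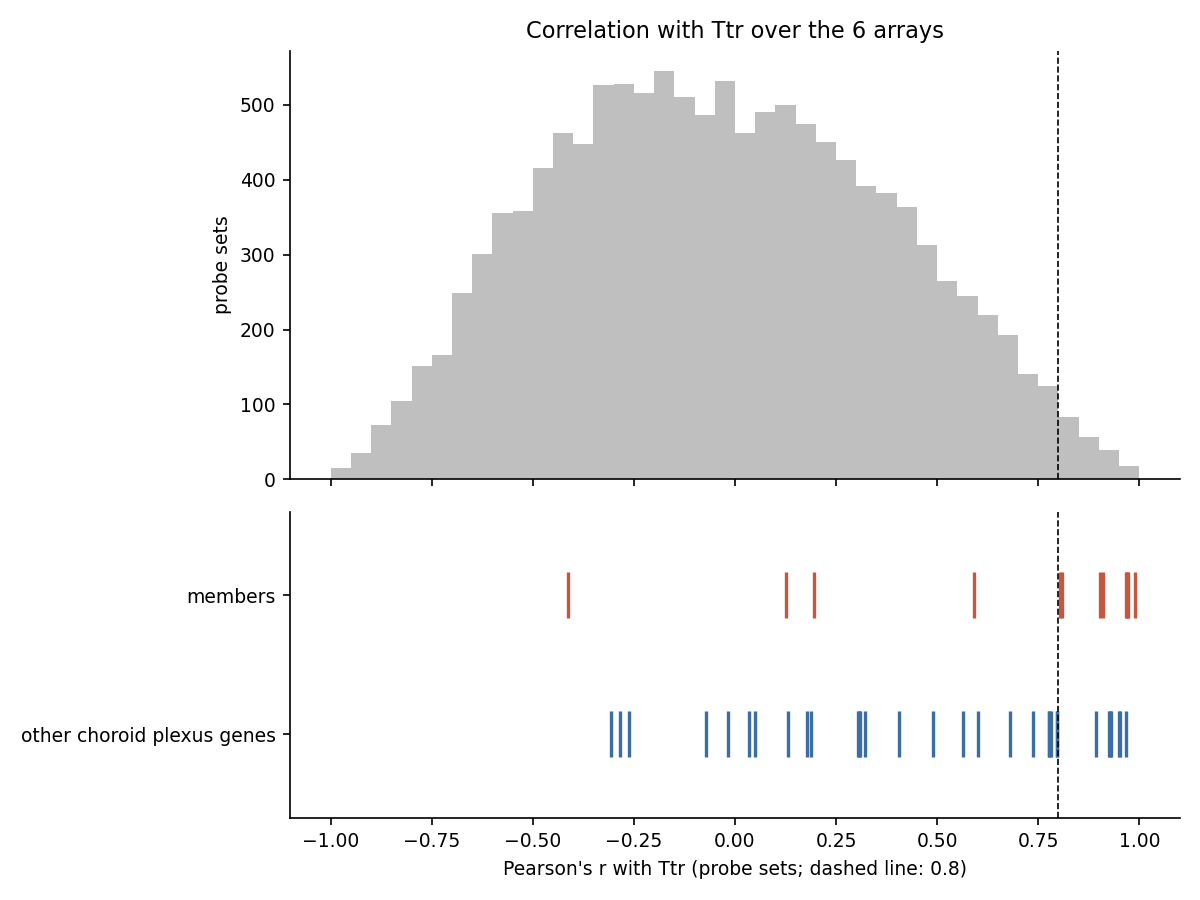
Pearson's r with Ttr over the 6 arrays (horizontal axis): the histogram counts all other probe sets, and the ticks mark single probe sets of the members (red) and of the other choroid plexus genes (blue); the dashed line is 0.8. The members, chosen with this measure known, crowd at the right end, 8 of 12 at or above 0.8 against 1.59% of all probe sets, and 4 lie lower.

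The relation was also computed inside the genotypes. With the mean of each group subtracted, r was 0.99 for Kl, 0.98 for Slc4a5, 0.96 for Igfbp2 and 0.96 for the brighter Folr1 probe set, and 6 of the 12 probe sets were at 0.8 or more, where 1.94% of all probe sets were. The arrays farthest from the median of Ttr were Hdh4/Q80 replicates 8 and 9. Without both, 6 of the 12 stayed at 0.8 or above, but 8.73% of all probe sets did too, since wild-type replicate 6 was then the one high array and the relation rested on it. Kl (0.99), Folr1 on 93785_at (0.99), Slc4a5 (0.98) and Igfbp2 (0.92) were among these 6, while Folr1 on 162302_f_at dropped to 0.29. With any 1 mouse left out the lowest r was 0.986 for Kl, 0.96 for Slc4a5, 0.96 for the brighter Folr1 probe set and 0.95 for Igfbp2.

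The design compares Hdh4/Q80 with wild-type striatum. Ttr averaged 9.02 ± 1.08 in wild type and 10.10 ± 1.46 in the mutants (log2 mean ± SD over n = 3 mice a group), 1.08 higher in the mutants with a standard error of 0.671, and Kl 5.37 ± 0.564 and 6.21 ± 1.04. Slc4a5 averaged 4.74 ± 0.257 and 5.23 ± 0.504, Igfbp2 7.04 ± 0.558 and 7.54 ± 0.626, and Folr1 on 93785_at 7.56 ± 0.166 and 7.88 ± 0.398. In each of these 5 probe sets the SD of at least 1 group was larger than the difference of the means. Of the 13 probe sets 12 had a difference above 0, where 48.9% of all probe sets had; as these transcripts share the same high mice, they do not count as separate observations. The exception was Igf2 on 98622_at, at -0.13.

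None of the 13 probe sets was called in limma's fit of the whole table with Benjamini-Hochberg adjustment, and 0 of all 12422 were (0%; smallest adjusted p = 0.857). At an unadjusted p under 0.05 there were 2 of the 13, for Folr1 on 162302_f_at and for Slc4a5, and 634 of all probe sets (5.1%). In 2 of the 13, Folr1 on 162302_f_at and Ace on 101428_at, every mutant lay above every wild type, against 6.67% of all probe sets. Leaving out single mice moved 11 of the 13 differences by over 1.5 times, the exceptions being Folr1 on 162302_f_at and Ace on 160927_at. For Ttr, 1.08 turned into 0.50 when Hdh4/Q80 replicate 9 was left out, 0.83 for replicate 8 and 1.89 for replicate 7. Leaving out wild-type replicate 6 gave 1.70, replicate 4 gave 0.81 and replicate 5 gave 0.72. That of Kl, 0.83, ran from 0.41 to 1.41, that of Slc4a5, 0.49, from 0.28 to 0.77, that of Igfbp2, 0.51, from 0.22 to 0.84, that of Folr1 on 93785_at, 0.32, from 0.14 to 0.53, and that of Igf2 on 98623_g_at from 0.01 to 0.28, the low ends without Hdh4/Q80 replicate 9 and the high ends without replicate 7. The 95% interval of the Ttr difference reached from -0.42 to 2.57.

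**Figure D3:**
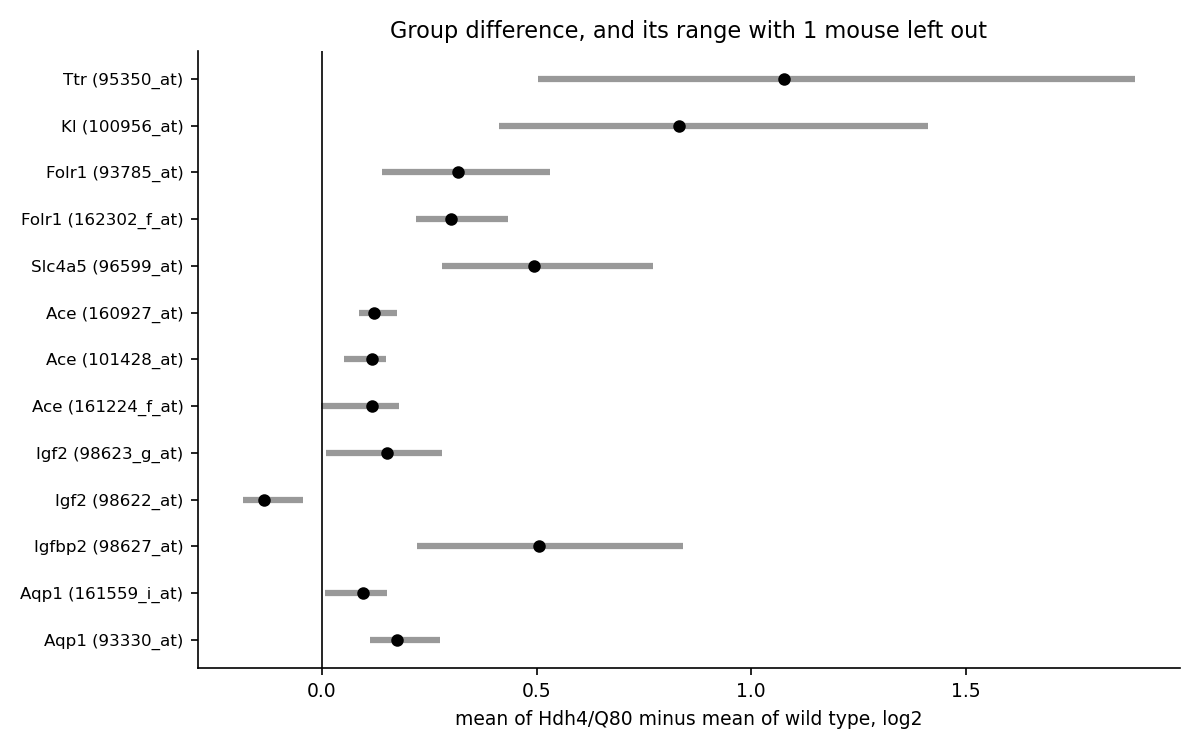
Mean of Hdh4/Q80 minus mean of wild type in log2 units (horizontal axis) for each of the 13 probe sets: the point is the value over 3 mice a group and the grey bar the lowest and highest value with 1 mouse left out. The bar of Ttr reaches from 0.50 to 1.89, and the bars of Ace on 161224_f_at and of Igf2 and Aqp1 on their brighter probe sets reach or nearly reach 0.

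Other genes of the choroid plexus epithelium were read from a list of 50, of which 28 had a probe set of their own. In 7 of the 28, r with Ttr was at least 0.8, where 1.61% of all genes reached it, and the median r was 0.53 against -0.06 over all genes. The 7 were F5, coagulation factor V (0.97), Lbp, the lipopolysaccharide-binding protein (0.95), Cdkn1c, a cyclin-dependent kinase inhibitor (0.95), Pon3, a paraoxonase (0.93), Msx1, a homeobox factor (0.93), Cldn2, a pore-forming tight junction protein of leaky epithelia (0.93), and Col8a1, a collagen chain (0.89). F5 read 5.79, 5.50 and 6.03 in wild type and 5.67, 6.15 and 6.34 in the mutants, and Cldn2 6.84, 6.88, 6.94, 6.85, 7.11 and 7.18 in replicates 4 to 9. Both were highest in Hdh4/Q80 replicates 8 and 9 with wild-type replicate 6 next. Calml4 and Cd9 lay just outside the limit (both 0.80 when rounded), and the count became 10 after median centring, 9 after quantile normalization and 11 after cyclic loess. It was 13 with wild-type replicate 6 left out and 11 with Hdh4/Q80 replicate 8 left out. The share of all genes at 0.8 or more was not computed for these settings. A rise of the count in them thus has no background to be read against.

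Not all of that list followed Ttr. Krt8 (-0.02), a keratin of simple epithelia, Ezr (0.04), which links membrane to actin, and Car12 (0.32), a carbonic anhydrase, did not. Htr2c, the serotonin 2C receptor, had r = 0.19 and Cp, ceruloplasmin, -0.31. Several of these are also made by other brain cells. Htr2c and Cp, however, lay below the lower quartile of every array, and Htr2c spanned only 0.10. A low r at such dim signal does not show that a transcript failed to follow Ttr. Pon3, counted above among those that followed, was as dim (4.78 to 5.01) and spanned 0.23. Brighter genes of the list with a low r were Slc22a17 (mean 11.60, r = 0.05), Ctsd (mean 10.84, r = 0.13) and Rarres2 (mean 7.65, r = -0.26). The mean level of the 28 genes was 7.15, 7.12 and 7.21 in wild type and 7.12, 7.20 and 7.32 in the mutants, highest in Hdh4/Q80 replicate 9. Of the 28 genes 19 had a difference between genotypes above 0 (46.7% of all genes did), 0 were called, and the median difference was 0.04 against -0.01 over all genes. Defining genes of the epithelium such as Otx2, Kcnj13, Clic6 and Sostdc1 lacked a probe set naming them singly and are not analysed here.

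**Figure D4:**
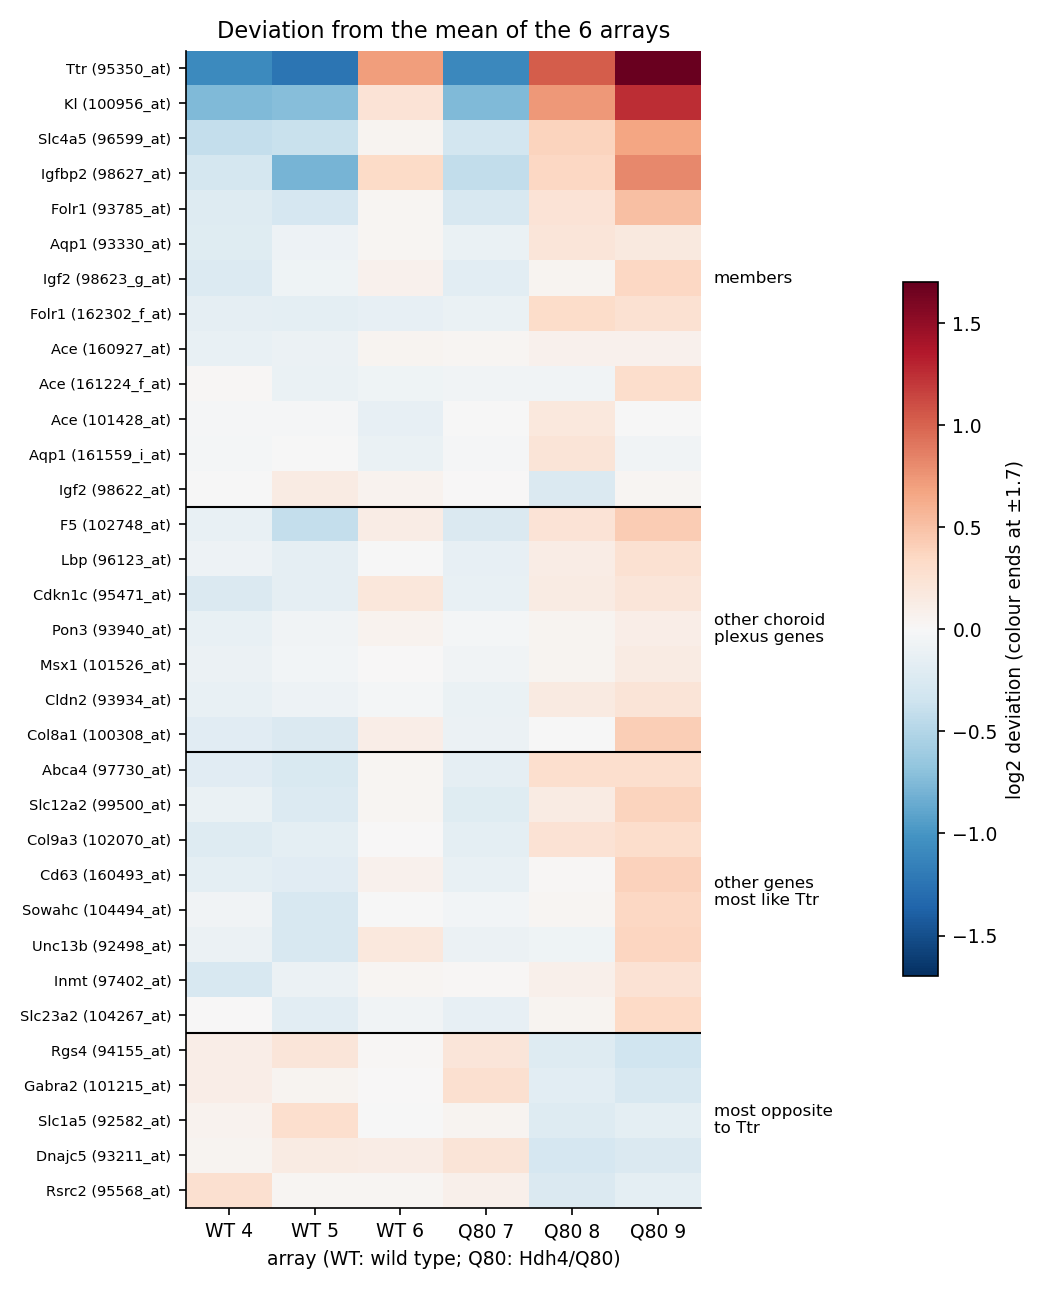
Deviation of each probe set from its own mean over the 6 arrays, in log2 units (colour), for the 13 member probe sets, the 7 other choroid plexus genes with r of at least 0.8, the 8 further genes most like Ttr and the 5 most opposite to it, with arrays in columns. Red in WT 6, Q80 8 and Q80 9 marks the Ttr pattern, strongest in Ttr and Kl and faint in Pon3 and Msx1.

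Other genes of the pathways in which the 8 proteins work were read in the same way. Among 21 measured genes of water, ion and bicarbonate transport, 2 had r of at least 0.8: Slc12a2, the sodium-potassium-chloride cotransporter NKCC1 of the ventricular membrane (0.96; 8.67, 8.54, 8.82, 8.58, 8.93 and 9.16 in replicates 4 to 9), and Car14, a membrane carbonic anhydrase (0.82). Their next was Slc12a7, a potassium-chloride cotransporter (0.78). Slc4a4, a sodium bicarbonate cotransporter related to Slc4a5, went the other way with r = -0.88, the one gene of the list at -0.8 or below (8.54, 8.54, 8.42, 8.41, 8.33 and 8.26). Of 16 genes for the cargo of transthyretin 0 reached 0.8, the highest being Stra6, the receptor for retinol-binding protein (0.75), then Crabp2, a retinoic acid binding protein (0.47), and Dio2, a thyroid hormone deiodinase (0.35). Of 17 further insulin-like growth factor genes 0 did (Igf2r, a clearance receptor for Igf2, 0.65; Igfbp7 0.53; Igfals 0.38, and 0.17 on its other probe set). Of 13 angiotensin and kinin genes 0 did (Bdkrb2, a bradykinin receptor, 0.69; Atp6ap2 0.30; Enpep 0.30, and -0.22 on its other probe set), and 1 was at -0.8 or below, Mme, the peptidase neprilysin (-0.88). Of 11 folate genes 1 did, Fpgs, which adds glutamate to folate (0.82), followed by Ggh (0.34) and Shmt2 (0.23). Of 15 klotho partners and vitamin D genes 0 did on their brightest probe sets (Slc20a1 0.41; Cyp24a1 0.35, and -0.28 on its other probe set), the highest being Fgfr2 at 0.47, with 0.90 on a dimmer probe set and -0.57 on another. By genotype 10 of 21, 7 of 16, 8 of 17, 9 of 13, 4 of 11 and 10 of 15 genes of these 6 lists had a difference above 0. Of all genes 46.7% did, and 0 were called in each list. An unadjusted p under 0.05 in limma's fit was held by 1 angiotensin and kinin gene, Enpep, and 1 folate gene, Fpgs. The other lists had 0, and 355 of all 8251 genes had such a p. The Enpep difference was 0.28 on its brightest probe set and -0.15 on the other.

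Markers of other tissue that a striatal dissection could carry were read in the same way. None of 10 ependymal genes (cells that line the ventricle) reached an r of 0.8. The highest was Tekt1, a tektin of cilia (0.47), which was at 5.36 in Hdh4/Q80 replicate 8 and from 4.41 to 4.64 in the other mice, followed by Mlf1 (0.29). Foxj1, the ciliary master regulator, had r = 0.03 and lay between 8.29 and 8.44. The mean of the ependymal list was highest in Hdh4/Q80 replicate 8 (6.42) and from 6.31 to 6.36 in the other mice. None of 23 meningeal fibroblast genes reached 0.8 (Dcn, decorin, 0.78; Bgn, biglycan, 0.72, and 0.18 on its other probe set; Lum, lumican, 0.67). With group means subtracted Dcn had 0.89, and 0.98 without the arrays farthest from the Ttr median; it read 7.07, 7.12 and 7.45 in wild type and 7.05, 7.15 and 7.40 in the mutants, high in wild-type replicate 6 and Hdh4/Q80 replicate 9. Ptgds, a prostaglandin D synthase on the meningeal list, had r = -0.06 and lay between 10.88 and 11.33. The same count was 0 of 20 for endothelial and mural genes (Tek 0.55, Kdr 0.48 and Itm2a 0.39) and 0 of 10 for blood (S100a9 0.57, Pf4 0.18 and Slc4a1 0.12), where Alas2, the heme synthesis enzyme of red cells, was at -0.85. Of 15 genes of subventricular neuroblasts 1 reached it, Dcx, doublecortin (0.93; 6.67, 6.71, 6.85, 6.79, 7.06 and 7.09 in replicates 4 to 9), and 1 was at -0.8 or below, Dlx6, a homeobox factor (-0.93; 7.89, 7.91, 7.79, 7.93, 7.64 and 7.69), lowest in the 3 mice high for Ttr. Mki67, the proliferation antigen, had 0.36 (0.10 on its other probe set). Igfbpl1 had 0.24 on its brightest probe set and 0.87 on the other. The median difference between genotypes was -0.0030 for the ependymal, 0.04 for the meningeal and -0.04 for the vascular list. It was 0.0035 for the blood and -0.06 for the neuroblast list, and 0 genes were called in each of these lists. Of the 10, 23, 20, 10 and 15 genes in turn, 5, 16, 6, 5 and 5 had a difference above 0, where 46.7% of all genes did. At an unadjusted p under 0.05 in limma's fit there were 0, 4, 1, 3 and 1 of them, and 355 of all 8251 genes.

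Of 14 measured genes listed for striatal projection neurons 0 had an r of at least 0.8 and 2, Rgs4 (-0.94) and Isl1 (-0.81), were at -0.8 or below, where 1.89% of all genes were. Their mean level was 9.18, 9.06 and 9.09 in wild type and 9.11, 8.87 and 9.10 in the mutants, lowest in Hdh4/Q80 replicate 8, and 4 of the 14 had a difference above 0 (median -0.06, 0 called). Pdyn, the dynorphin precursor, had the highest r of the list (0.72, and -0.53 on its other probe set). The list also held Tbr1, which marks cortical rather than striatal neurons: it read 6.83, 6.10, 8.04, 6.96, 5.95 and 6.92 in replicates 4 to 9, with r = 0.18. Without Tbr1, a choice made after its values were seen, the mean of the other 13 genes was 9.36, 9.29 and 9.17 in wild type and 9.28, 9.09 and 9.26 in the mutants, lowest in the 3 mice high for Ttr, and 4 of the 13 had a difference above 0. Wild-type replicate 6 was high for both Tbr1 and Ttr, and Hdh4/Q80 replicate 8 high for Ttr and lowest for Tbr1. The part of any of these markers in the Ttr pattern was not tested.

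**Figure D5:**
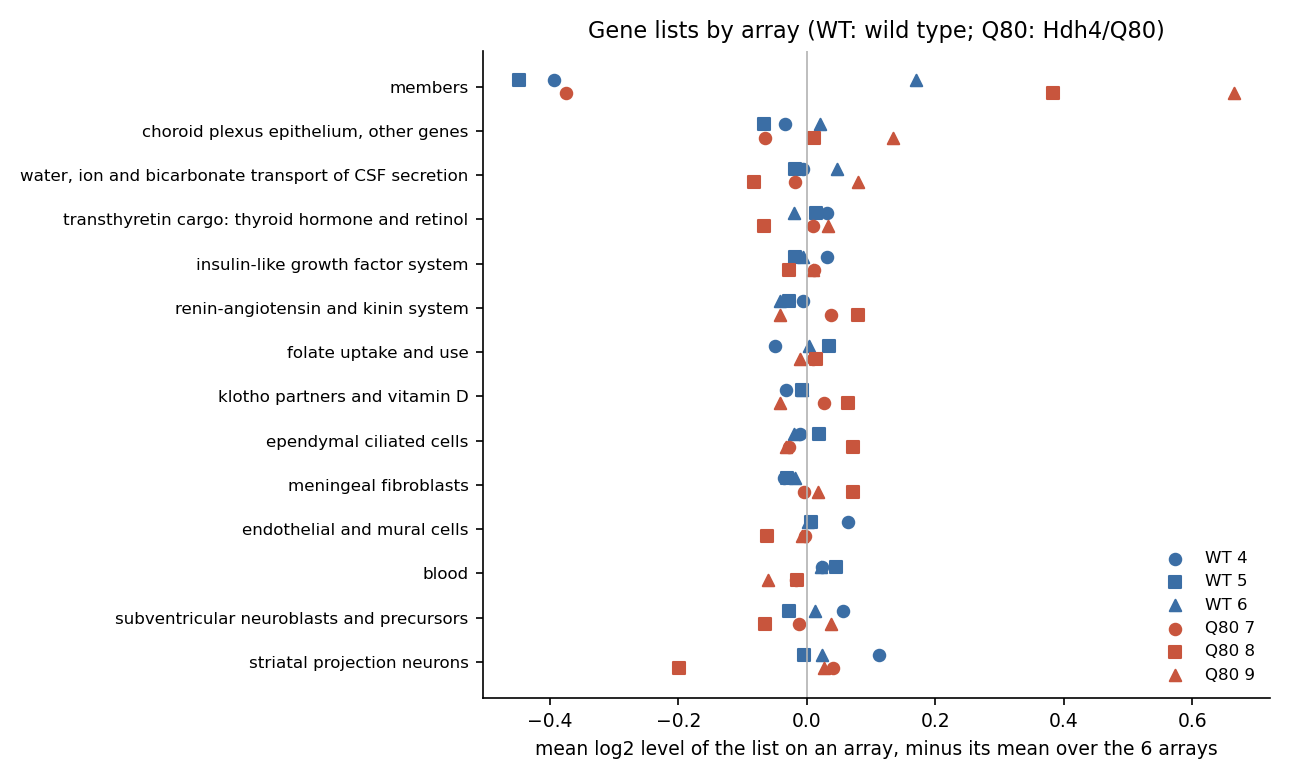
Mean log2 level of each gene list on each array minus the mean of that list over the 6 arrays (horizontal axis), blue for wild type and red for Hdh4/Q80. The 8 members spread over more than 1 log2 unit, from 7.11 to 8.22 in level, while the other choroid plexus genes spread from 7.12 to 7.32. The members were chosen with their per-array values known, so their wider spread is a description and not a finding.

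Outside the members, the 10 genes most like Ttr among those spanning at least 0.5 on the log2 scale were F5 (0.97), Abca4 (0.96), Slc12a2 (0.96), Col9a3 (0.96), Cd63 (0.92), Col8a1 (0.89), Sowahc (0.82), Unc13b (0.82), Inmt (0.82) and Slc23a2 (0.80), by Pearson's r over the 6 arrays. Abca4, a retinoid transporter best known from photoreceptors, read 7.37, 7.29 and 7.58 in wild type and 7.40, 7.84 and 7.85 in the mutants. Col9a3, a chain of collagen IX, read 7.68, 7.74 and 7.91 in wild type and 7.74, 8.15 and 8.20 in the mutants, and a dimmer probe set of it had r = 0.56. Slc23a2 carries vitamin C into cells, Cd63 is a tetraspanin of late endosomes, and Unc13b primes synaptic vesicles. The 5 most opposite were Rgs4, a regulator of G-protein signalling in neurons (-0.94), Gabra2, a GABA-A receptor subunit (-0.88), Slc1a5, a neutral amino acid transporter (-0.85), Dnajc5, a synaptic vesicle chaperone (-0.79), and Rsrc2 (-0.79). Rgs4 read 7.91, 8.01 and 7.82 in wild type and 8.01, 7.58 and 7.46 in the mutants, lowest in the 3 mice that were high for Ttr.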

How the data were processed

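The deposited log2 expression values come, per the submitters' processing notes, from the affy package and RMA (robust multi-array average); versions, and whether all arrays were normalized jointly, are not stated there. RMA equalises the arrays and compresses changes of dim probe sets. The number of arrays limits the precision. RNA was extracted with TRIzol and a column, and labelled with biotin, per the labels' protocols. Of 12488 probe sets 66 controls were left out; 10833 had 1 gene symbol, 396 several and 1193 none, giving 8251 genes, 8237 of which matched the reference gene table by identifier.

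Genotypes were compared with limma 3.58.1 (R 4.3.3) over all 12422 probe sets (Benjamini-Hochberg, threshold 0.05). Correlations used the deposited values. A gene of a list was read on its probe set of highest mean; the 13 lists held 319 entries. All genes chosen, the lists and the limits of 0.8 and 0.5 were set with earlier results of these data known. The rule for named genes was every probe set of the 8 genes, the 10 genes most like Ttr and the 5 most opposite among those spanning 0.5, each list's genes at r of 0.8 or its top 3, and Foxj1, Ptgds, Penk and Tac1; other names were chosen after their values were seen. The fit and the correlation were tested on simulated data. Each array was taken as 1 mouse, as the design text counts. Alternatives were 3 normalizations, a filter on dim probe sets, trended and robust moderation, array weights, Spearman's rho, group means subtracted, omission of each mouse, and averaging of probe sets by gene.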

Additional observations from a re-analysis of the deposited data

How the results depend on the processing

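Across 3 normalizations, trended and robust moderation, array weights, removal of the dimmest 40% of probe sets and removal of each mouse, 0 probe sets were called in every fit. The smallest adjusted p of limma's fit ran from 0.0873 with array weights to 1 without wild-type replicate 6. All 8 genes kept a difference above 0 on their brightest probe set in every setting that held them; the filter on dim probe sets left 6 of them, without Kl and Slc4a5, and 6 of 6 were above 0. By probe set the count above 0 was 11 to 12 of 13 with 1 mouse left out, Ace on 161224_f_at turning to -0.0031 without Hdh4/Q80 replicate 9 (highest 0.18 without replicate 7). Of the 12 member probe sets other than Ttr, 8 had an r of 0.8 or more. That count was 4 with Spearman's rho and 6 to 7 with 1 mouse left out. By gene the count was 6 of 7 on the brightest probe sets and 5 to 6 with 1 mouse left out. It was 5 with group means subtracted, and 4 with Spearman's rho or with probe sets averaged by gene. Without the dimmest 40% of probe sets it was 4, where fewer genes were left. Weak correlations changed sign: Ace on 101428_at was -0.12 with group means subtracted and -0.34 to 0.50 with 1 mouse left out, Ace on 161224_f_at -0.095 to 0.73, and Aqp1 on 161559_i_at -0.31 with Spearman's rho, -0.099 with group means subtracted and -0.79 to 0.41 with 1 mouse left out; the lowest values came without Hdh4/Q80 replicate 8 for the first and last and replicate 9 for the other. The count of other choroid plexus genes at r of 0.8 or more, 7 of 28, was 11 after cyclic loess, 4 without the dimmest 40% of probe sets, where fewer genes were left, and 8 to 13 with 1 mouse left out, 13 without wild-type replicate 6 and 11 without Hdh4/Q80 replicate 8; otherwise the cause was not tested. Their median difference ran from 0.038 to 0.078 with 1 mouse left out. Among these alternatives, the share of all probe sets at 0.8 or more was computed only with group means subtracted (1.94%). The counts at 0.8 or more in the other alternatives, Spearman's rho included, thus have no background. No paired analysis was made, because the sample labels do not say which mice shared a litter and the replicate numbers of the groups do not overlap. Litter was thus not part of the fit. Without detection calls no transcript could be judged absent, and the dim values of Kl and Slc4a5 have weak limits.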
